A study of Mus musculus with 6 samples.

Results

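The libraries described here came from PRR14 knockout mice, which lack a protein of the nucleus. Skeletal muscle was taken after an adeno-associated virus (AAV) that carried green fluorescent protein (GFP) alone had been injected. They are the 3 libraries titled GFP1, GFP2 and GFP3, chosen by title from the 6 samples of the series, and their counts were taken for the rows that name a known gene with an Ensembl identifier. All 3 carried the knockout and all were collected 1 month after the injection. The labels name no muscle, age, sex or strain, and do not say whether the 3 libraries came from 3 separate animals. No wild-type or uninjected muscle was analysed here, so the values below describe this one condition, in which effects of the virus and of the knockout cannot be told apart.

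An adult muscle is a mixture of fibres that differ in the version of each contractile protein they make. In the mouse, slow type I fibres use the myosin heavy chain of Myh7, and fast fibres use those of Myh2 (type IIa), Myh1 (type IIx) or Myh4 (type IIb). The troponins, myosin light chains, calcium pump and calsequestrin have fast and slow versions too, and fast type IIb fibres are known for glycolysis, whereas type I and IIa fibres are rich in mitochondria. In whole tissue, fewer cells of a type and less RNA per cell cannot be told apart.

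RNA was read as full-length complementary DNA on an Oxford Nanopore instrument after 14 cycles of PCR, and a read stands for about 1 cDNA molecule, so counts do not scale with transcript length in the way that short reads do. The listed genes received 3370833 counts in GFP1, 3471928 in GFP2 and 3900617 in GFP3. Levels are given in CPM, which are counts scaled to the same total in each library. The table lists 22036 genes, of which 12038 had at least 1 count in every library and 7638 had none. A count of 0 allows a level of up to 0.890 CPM in GFP1, 0.864 in GFP2 and 0.769 in GFP3 (3 counts). PCR copies could not be removed, so this floor and the 95% intervals below (exact Clopper-Pearson) cover counting error only.

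The knocked-out gene, Prr14 (chr7:127459611-127476759, GRCm38, plus strand), was at a low level in all 3 libraries, with 11 counts in GFP1, 12 in GFP2 and 15 in GFP3. These are 3.26, 3.46 and 3.85 CPM. No wild-type level was available here and the deleted part of the gene is not named in the labels, so these counts do not check the knockout. Mef2c, which encodes a transcription factor of muscle genes and is the gene carried by the other virus of the series, was at 223 CPM in GFP1, 236 in GFP2 and 228 in GFP3 (229 ± 6.33, SD, n = 3). It lies on chr13:83504034-83667080 (GRCm38), and its level differed little between the libraries, with a coefficient of variation (SD over mean, CV) of 2.76%. The related Mef2d was at 52.2, 33.1 and 32.3 CPM, and Mef2a had 81, 52 and 72 counts, both highest in GFP1.

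The labelled tissue was borne out by its defining transcripts. Of the 6 markers of skeletal muscle looked for, Acta1 (skeletal actin), Ckm (muscle creatine kinase), Myh4, Myh1, Tnnt3 (fast troponin T) and Ttn (titin), the least abundant, Myh1, averaged 1842 CPM. Few genes made up most of the RNA. The 10 most abundant genes held 30.1% of the counts in GFP1, 32.9% in GFP2 and 29.2% in GFP3, and the 100 most abundant held 56.3%, 58.9% and 56.0%. Between 43 genes (GFP2) and 61 genes (GFP3) accounted for 50% of the counts, and between 1562 (GFP2) and 1899 (GFP1) for 90%. GFP2 was the most concentrated of the 3 on each of these measures.

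The most abundant transcript was Tpm1, the fast tropomyosin that lies along the thin filament, at 45441 CPM in GFP1, 55011 in GFP2 and 41901 in GFP3 (47451 ± 6782, SD, n = 3). Acta1 followed at 40547, 49026 and 43646 CPM, and Ckm, which regenerates ATP from phosphocreatine, at 40697, 45508 and 39368 CPM. The spread of the first 3 genes overlapped: Tpm1 ranked first in GFP1 and GFP2, and Acta1 in GFP3. Mylpf, the fast regulatory light chain, was steadier, at 35201, 37659 and 36213 CPM (36358 ± 1235, SD, n = 3), and so was Tnnc2, the fast troponin C, at 36289, 33097 and 33929.8 CPM (CV 4.81%). Mylpf and Tnnc2 likewise changed places between libraries and were not separable beyond their spread. Atp2a1, the calcium pump of fast fibres, came sixth in every library, at 26953, 25849 and 21594 CPM. Myl1, the fast essential light chain, and Tnnt3 followed at means of 22514 ± 1168 and 20259 ± 1177 CPM.

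**Figure D1:**
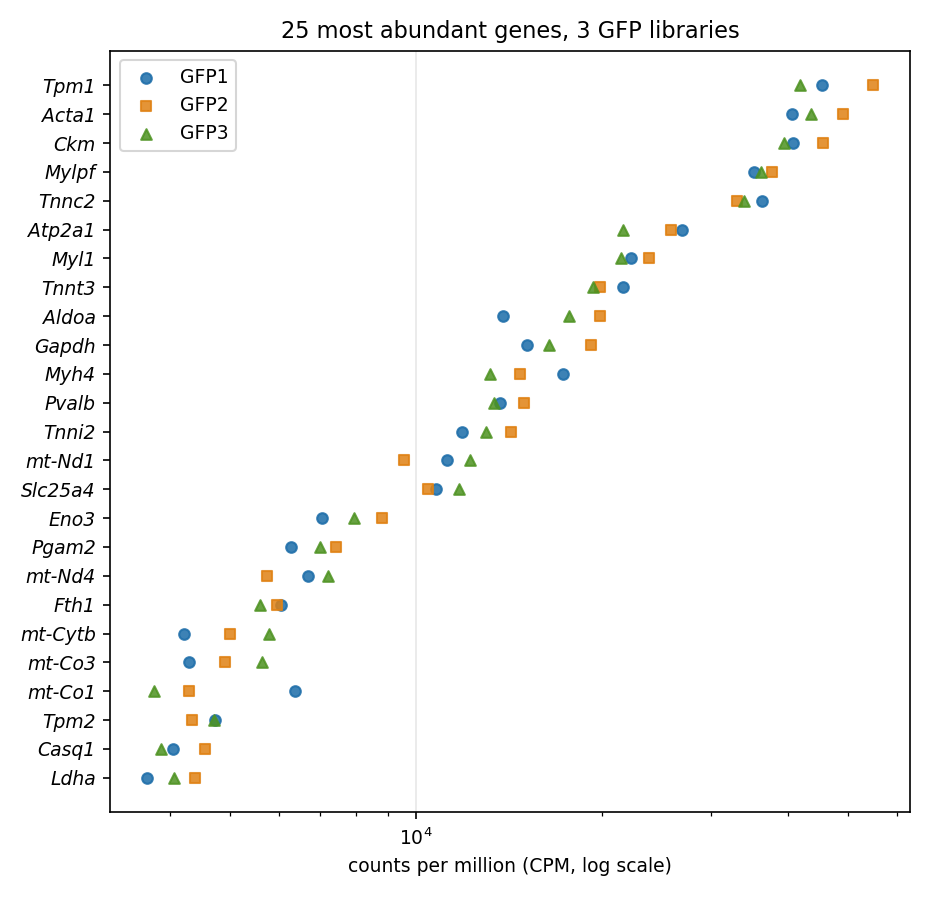
Level of the 25 genes with the highest mean, in CPM on a log axis, with 1 point for each GFP library. The 3 points of Mylpf and Tnnc2 lie close together, whereas those of mt-Co1 spread from 3769 to 6363 CPM.

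Below these came glycolysis, calcium buffering and mitochondrial transcripts. Aldoa (aldolase) was at 13848, 19845 and 17679 CPM and Gapdh at 15098, 19216 and 16427 CPM, both lowest in GFP1 and highest in GFP2. Pvalb, the calcium buffer of fast fibres, was at 13690.4, 14972 and 13356 CPM. The rest of the first 25 were Myh4, Tnni2 (fast troponin I), mt-Nd1, Slc25a4 (the ATP/ADP carrier of the inner mitochondrial membrane), Eno3, Pgam2, mt-Nd4, Fth1 (ferritin heavy chain), mt-Cytb, mt-Co3, mt-Co1, Tpm2, Casq1 and Ldha. Their means ran from 15058 CPM (Myh4) to 4037 CPM (Ldha). The lists of the 25 most abundant genes shared 23 genes across the 3 libraries, out of 26 that were in any of them, and the lists of 100 shared 90 of 110.

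Dividing by the length of the longest annotated transcript put small genes first, with Tnnc2, Mylpf and Acta1 leading and Tpm1 sixth. Of the 25 genes, 19 also ranked among the first 25 per kilobase. Myh4, whose longest transcript has 6016 bases, was rank 11 by CPM and rank 37 per kilobase.

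Sorted by role, filament proteins of the sarcomere made up the largest named share. Its 47 genes held 29.7% of the counts in GFP1, 31.1% in GFP2 and 28.1% in GFP3 (29.6% ± 1.52, SD, n = 3). The nuclear genes of the respiratory chain followed with 6.77% ± 0.353 and glycolysis and glycogen with 6.70% ± 0.722, and these classes did not separate beyond their spread. The cytosolic ribosomal proteins held 6.07% ± 0.0768, less than the nuclear respiratory genes in each library. The creatine, adenylate and myoglobin genes, led by Ckm, held 4.89% ± 0.326, and the 13 listed mitochondrially encoded genes held 4.05%, 3.61% and 4.34%. The Z-disc, costamere and triad genes held 1.17% ± 0.0958. The citric acid cycle and fatty acid genes held 1.02% ± 0.0821. All 428 genes of the named classes held 62.0% ± 1.35, and the other 13973 detected genes the rest.

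**Figure D2:**
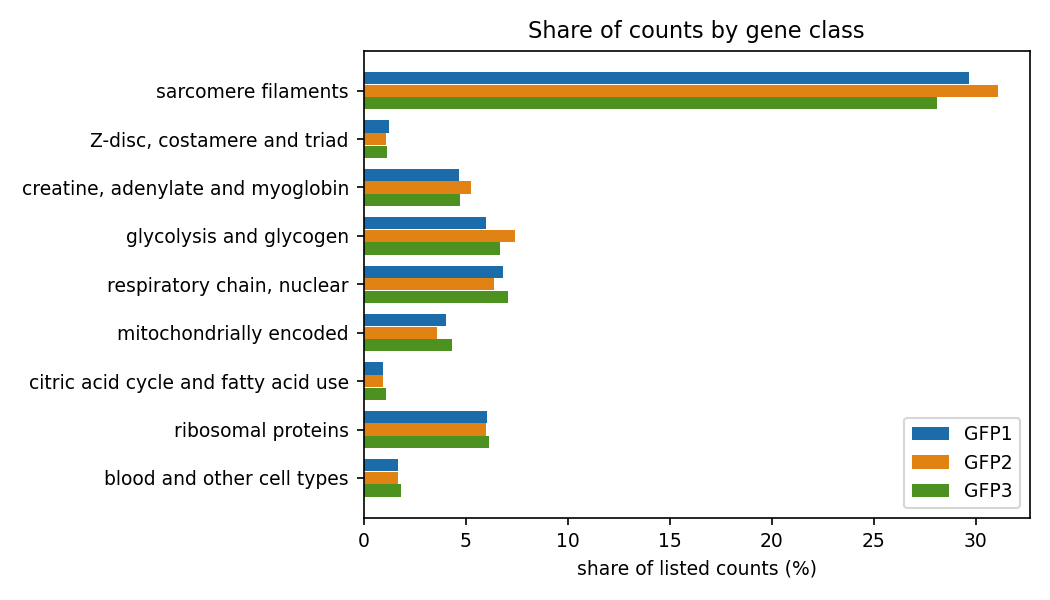
Share of the counts of listed genes, in percent, held by each functional class, with 1 bar for each GFP library. Sarcomere filaments average 29.6% and each other named class averages under 7%.

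Among the myosin heavy chains, the IIb gene prevailed. Myh4 (chr11:67238029-67260446, GRCm38, plus strand) held 86.6% of the heavy chain counts in GFP1 (95% interval 86.3 to 86.9), 90.5% in GFP2 (90.2 to 90.7) and 84.9% in GFP3 (84.6 to 85.2), a mean of 87.3% ± 2.83 (SD, n = 3). The IIx gene Myh1 held 11.7%, 8.60% and 11.5%. The IIa gene Myh2 held 1.59%, 0.928% and 3.48%. GFP2 had the highest share of Myh4 and the lowest of both others, and the intervals of the 3 libraries did not overlap for Myh4 or Myh2. In CPM, Myh2 was at 318, 151 and 539, a 3.56-fold ratio of the highest to the lowest library, against 1.31-fold for Myh4 and 1.67-fold for Myh1. Without GFP3 the mean share of Myh2 was 1.26%, a fall of over 1.5 times.

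Slow myosin was close to absent. Myh7 (chr14:54970684-54994626, GRCm38, minus strand) received 24 counts in GFP1, 1 in GFP2 and 14 in GFP3, or 0.0357%, 0.00177% and 0.0232% of the heavy chain counts. GFP2 lay below the other 2 libraries with no overlap of the intervals, whose upper bound in GFP2 was 0.00985%. The mean share was 0.0202%, or 0.0125% without GFP1. Of the other family members, Myh13 (extraocular muscle) had 12, 3 and 14 counts, the neonatal Myh8 had 3, 5 and 4, and the embryonic Myh3 had 1, 0 and 3. The cardiac Myh6 had 3, 0 and 2 counts, Myh7b had 1 in each library and Myh15 had none. Shares per kilobase differed little, with 87.5% for Myh4. The fast heavy chains resemble each other, and 28.1% of the 31-base words of Myh1 also occur in Myh2 and 19.4% of those of Myh4 in Myh1, so some reads could have been given to the wrong member. Only 0.702% of the words of Myh4 occur in Myh7.

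The 3 expressed fast genes lie next to each other on chromosome 11, and the 100 bases before each start are shown from RefSeq (GRCm38.p6), since their levels differ so much. Each is written 5′ to 3′ on the strand of the gene, and capitals mark TATAAA, the core of a TATA box.
Myh4, chr11:67237712-67237811, plus strand: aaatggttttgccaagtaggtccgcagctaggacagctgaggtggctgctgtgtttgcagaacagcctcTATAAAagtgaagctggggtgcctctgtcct
Myh1, chr11:67200002-67200101, plus strand: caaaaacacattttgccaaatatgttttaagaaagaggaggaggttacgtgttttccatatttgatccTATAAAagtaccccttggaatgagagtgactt
Myh2, chr11:67170927-67171026, plus strand: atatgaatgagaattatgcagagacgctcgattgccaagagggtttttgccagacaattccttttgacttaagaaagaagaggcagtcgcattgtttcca
The letters occur in the Myh4 and Myh1 stretches and not in the one shown for Myh2, whose 300-base RefSeq entry holds them elsewhere. TATAAA, searched on both strands in the 50 bases before the start, occurs in 3.50% of all 32851 RefSeq promoter entries. Among the 22862 genes with a single entry the share was 4.02%, and among such genes with a mean of at least 50 counts 2.53%. Of the 25 most abundant genes, 14 had a single promoter entry and 2 of them held it (14.3%), and of the 100 most abundant, 3 of 54 (5.56%). A match is a string of letters and not a measured binding site.

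**Figure D3:**
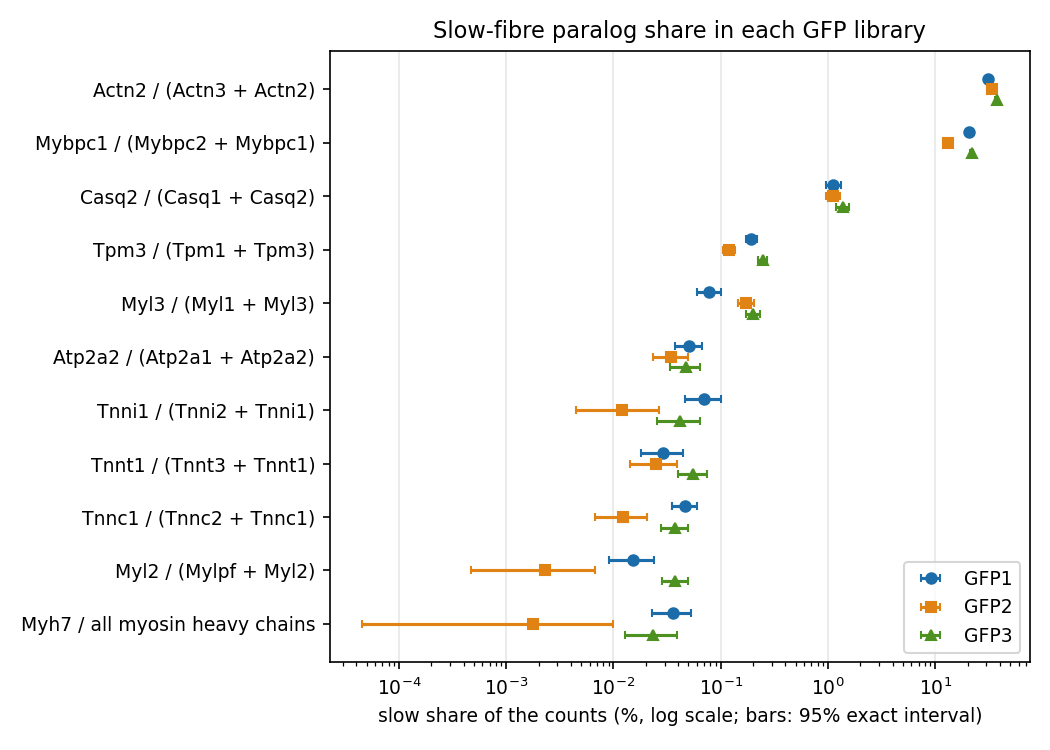
Share of the slow gene in the counts of each pair of fast and slow paralogs, in percent on a log axis, with 1 point for each GFP library and error bars for the exact 95% counting interval. The pairs of troponins, light chains and the calcium pump lie under 0.3%, and those of myosin-binding protein C and alpha-actinin above 10%.

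The fast bias held across the contractile apparatus, with 2 exceptions. In 8 of the 10 pairs of fast and slow paralogs, the slow gene held a mean of 0.0183% (Myl2) to 1.20% (Casq2) of the pair's counts. Without GFP3 the mean of Myl2 was 0.00873%, and without GFP1 that of Tnni1 was 0.0268% in place of 0.0412%. Tnni1, the slow troponin I, received 28, 6 and 21 counts beside 39958, 49472 and 50622 for the fast Tnni2. Tnnc1, the troponin C of slow and cardiac muscle, received 57, 14 and 50 counts beside 122325, 114911 and 132347 for Tnnc2. The slow share of troponin T, by Tnnt1, was 0.0289%, 0.0247% and 0.0556%, and in all 3 troponin pairs the slow share was lowest in GFP2. However, the GFP2 interval overlapped that of GFP1 for Tnnt1 and that of GFP3 for Tnni1.

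The light chains did not share one order of libraries. Myl2, the slow regulatory light chain, received 18, 3 and 53 counts, or 0.0152%, 0.00229% and 0.0375% of its pair with Mylpf, lowest in GFP2. Myl3, the slow essential light chain, held 0.0785%, 0.172% and 0.200% of its pair with Myl1, and it was GFP1 that was low. Tpm3, the slow tropomyosin, held 0.193%, 0.120% and 0.246% of its pair with Tpm1. Myl6b, a further slow light chain, had 0, 2 and 1 counts.

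For calcium handling, Atp2a2, the slow and cardiac calcium pump, held 0.0506%, 0.0345% and 0.0475%, with overlapping intervals. The calsequestrin Casq2 held 1.12%, 1.12% and 1.37%. Per kilobase, these mean shares were 0.0271% for Atp2a2 in place of 0.0442% and 0.871% for Casq2 in place of 1.20%, since the slow transcripts are longer. The same division took Tnni1, whose longest transcript has 2153 bases against 895 for Tnni2, from 0.0412% to 0.0171%.

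The exceptions were proteins of the thick filament and the Z-disc. Mybpc1, the slow myosin-binding protein C, was at 856, 476 and 727 CPM and held 20.7%, 13.1% and 21.9% of its pair with Mybpc2 (18.6% ± 4.80). Actn2, the alpha-actinin found in all fibres, was at 604, 708 and 736 CPM and held 31.1%, 33.9% and 37.3% of its pair with Actn3, which is made in fast fibres. Across the 10 pairs, the slow share was lowest in GFP2 in 7 and in GFP1 in 3, and highest in GFP3 in 7 and in GFP1 in 3. That tally takes Actn2 as the slow member of its pair. It also includes Atp2a2 and Casq2, for which the intervals of all 3 libraries overlapped. For Tnnt1, Tnni1, Tnnc1, Myl3 and Mybpc1, the intervals of some of the libraries overlapped. Only for Myl2, Tpm3 and Actn2 were all 3 libraries separate. A share within a library does not depend on how the libraries are scaled.

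The remaining fast genes were at similar levels in the 3 libraries, with Mylk2 as the exception besides Myh2. Mylk2, the kinase of the regulatory light chain, was at 121, 48.4 and 64.1 CPM (2.49-fold). Actn3 was at 1339.7, 1383 and 1237 CPM, Mybpc2 at 3269.5, 3168 and 2592 CPM, and Casq1 at 4047, 4551 and 3865 CPM. Of the 15 fast genes, all of which had a mean of at least 50 counts, 2 differed at least 2-fold between the highest and the lowest library. Over all 4234 genes with such a mean the share was 4.84% (205 genes). These ratios carry 1 added count, and no p-value belongs to them, since libraries of 1 group hold no contrast.

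Regulators of the fibre program were at low levels. Their 25 genes summed to 451, 408 and 409 CPM. The most abundant was Nr4a1, an orphan nuclear receptor, at 120.1, 149 and 131 CPM, followed by Tbx15, Maf and Sox6, which favour the fast fibre program, at means of 35.7, 33.3 and 32.4 CPM. Ppargc1a, the coactivator of mitochondrial biogenesis, was at 31.4, 24.8 and 26.4 CPM. Myf6, the myogenic factor of mature fibres, was at 171, 151 and 155 CPM and Myog at 33.2, 40.3 and 34.6 CPM. At the neuromuscular junction, Dok7 had 312, 285 and 273 counts and the acetylcholine receptor subunit Chrna1 had 182, 223 and 154. The embryonic subunit Chrng, named after its values were seen, had no count in any library.

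Among the filament, Z-disc and triad genes, levels of several very long transcripts varied. Ttn was at 2469.7, 1449 and 1807 CPM, and Ryr1, the calcium release channel, at 578, 332 and 341 CPM, with GFP1 highest for both. Neb (nebulin) was at 3329, 2510.4 and 2729 CPM. By contrast Ldb3, a Z-disc scaffold, was at 1148, 1049 and 1090.3 CPM and Srl (sarcalumenin) at 697, 693 and 675 CPM. Sln, the small inhibitor of the calcium pump, was at 73.6, 99.7 and 39.5 CPM (2.52-fold). The stretch-responsive muscle LIM protein gene Csrp3 stood out, at 76.2 CPM in GFP1, 54.7 in GFP2 and 346 in GFP3 (6.30-fold). Ankrd2, another stretch-responsive gene, was also highest in GFP3, at 159.9, 169 and 395 CPM (2.47-fold). The related Ankrd23, named after its values were seen, averaged 1209.8 CPM and differed 1.11-fold, lowest in GFP3. Of the 12 mechanosensing and nuclear envelope genes with a mean of at least 50 counts, 6 were highest in GFP3 and 5 in GFP1. Over all 4234 genes, 1653 were highest in GFP3 and 1784 in GFP1.

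The branches of energy metabolism differed in which library was highest, though by small amounts, and for some the lowest library depended on the scaling. Glycolysis and glycogen genes summed to 59902, 74337 and 66788 CPM, with GFP2 highest and GFP1 lowest, also after TMM scaling (edgeR's scaling by the bulk of genes). None of the 23 members with a mean of at least 50 counts reached 2-fold, where 4.84% of all 4234 genes did. The mitochondrially encoded genes summed to 40522, 36081 and 43433 CPM, again with the same highest and lowest library after TMM scaling. mt-Co1 went the other way, at 6363, 4293 and 3769 CPM. Of the 12 mitochondrially encoded members with a mean of at least 50 counts, 2 reached 2-fold, beside 4.84% of all 4234 genes. Among these 2 was mt-Nd6 (2.45-fold), with 332, 139 and 278 counts. mt-Nd6 is read from the opposite strand to its neighbours, and how the counting used strand is not given in the sources used here.

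The nuclear respiratory genes summed to 68198, 63914 and 70923 CPM, and 37 of their 50 members were highest in GFP3 (33 after TMM scaling). Over all 4234 genes, 1653 were highest in GFP3, and 1450 after TMM scaling. The sum of the nuclear respiratory genes stayed highest in GFP3 after TMM scaling, but was lowest in GFP1 in place of GFP2. The sum of the fatty acid genes changed in the same way. Of the 50, 2 reached 2-fold, a share close to that over all genes. One was Uqcrfs1, the iron-sulfur subunit of complex III, at 539.6, 70.9 and 217 CPM. The other, Cox5a, was named after its values were seen, and had 5021 counts in GFP1, 2228 in GFP2 and 4728 in GFP3. Cox6a2, the muscle form of a complex IV subunit, was at 4116, 3786 and 4065 CPM and Cox6c at 3268, 2959 and 3355 CPM. Mb (myoglobin) was at 2053, 2929 and 3503 CPM and Fabp3, the fatty acid carrier, at 1489.5, 1311 and 1804 CPM. Acadl was the fatty acid gene past 2-fold, at 144, 67.7 and 126 CPM.

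Ribosomal protein genes had the smallest ratio of any list on the scale of the listed totals. Of 62 members, none reached 2-fold. Of all 4234 genes 4.84% did, and of those with a mean of at least 200 counts 2.26%. The 62 genes summed to 60637, 59990.3 and 61520.3 CPM, a 1.03-fold ratio. After TMM scaling the ratio was 1.10-fold, GFP2 was highest in place of GFP3, and other lists were closer, among them the Z-disc and costamere genes at 1.05-fold. Among genes with a mean of at least 1000 counts, those with the lowest CV included Eef1b2 (334, 335 and 334 CPM), Rpl35a (1103, 1100.0 and 1101 CPM), Ghitm, Cd81, Rplp1, Rplp2 and Gstp1. The CVs of these genes ran from 0.141% for Eef1b2 to 0.984% for Gstp1, on the scale of the listed totals.

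Transcripts of other cell types were a small share. All 157 genes of the blood and other cell type lists held 1.71%, 1.69% and 1.84% of the counts. Of the 37 lists, those of granulocytes, macrophages and lymphocytes had sums that differed at least 2-fold on the scale of the listed totals, and GFP3 was highest in each. After TMM scaling the mast cell list joined them, and without GFP3 only that of lymphocytes passed. The granulocyte list summed to 5.34, 5.18 and 80.2 CPM. S100a8, a calprotectin subunit of neutrophils, had 4 counts in GFP1, 6 in GFP2 and 137 in GFP3, and S100a9, its partner, had 3, 1 and 47. The granule proteins Camp (0, 0 and 50 counts) and Ngp (0, 0 and 25) were seen in GFP3 alone, and 18 counts in all fell on the list's 15 genes in each of the other libraries.

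Summed, the bone and osteoclast list did not follow, at 232, 166 and 229 CPM. Of its members, the osteocalcin gene Bglap2 had 0, 0 and 43 counts, and Spp1 (osteopontin) had 20, 3 and 55. Ibsp (bone sialoprotein), named after its values were seen, had 0, 0 and 18 counts, while Bglap and Sp7, named in the same way, had none in any library. Col1a1, which fibroblasts share with bone, was at 193, 135 and 159 CPM and was not highest in GFP3. It held 77.2% of the list's counts, so the sums above mostly follow this gene and not the other members. The part of bone or marrow in these counts was not tested.

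The macrophage list summed to 548, 883 and 1206 CPM, lowest in GFP1. Its 9 members with a mean of at least 50 counts were all highest in GFP3 as counted, and 8 after TMM scaling. Over all 4234 genes, 1653 and 1450 were highest in GFP3. Of the 9 members, 5 reached 2-fold, where 4.84% of all 4234 genes did. Lyz2 (lysozyme) was at 168, 228 and 325 CPM. The class II antigen presentation genes Cd74 (80.7, 188 and 240.0 CPM), H2-Aa (46.9, 97.6 and 141 CPM) and H2-Ab1 (54.3, 114 and 147 CPM) had the same order. H2-Eb1, also of class II, and C1qc, both named after their values were seen, were the other members past 2-fold. C1qb, a complement subunit made by tissue macrophages, was at 67.6, 66.2 and 80.5 CPM (1.21-fold). Csf1r and C1qa, named in the same way as C1qc, differed 1.06-fold and 1.48-fold. Macrophage genes thus did not all vary alike, and most of the members past 2-fold were class II genes. The lymphocyte list summed to 2.37, 6.34 and 20.3 CPM, led by Nkg7 (2, 4 and 27 counts) and Jchain (1, 6 and 22 counts).

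Interferon-responsive genes were low in GFP1. They summed to 1012, 1473 and 1479 CPM, and all 14 members with a mean of at least 50 counts were lowest in GFP1, also after TMM scaling. Over all 4234 genes, 1321 were lowest in GFP1, and 2004 after TMM scaling. Of these 14, 4 reached 2-fold, where 4.84% of all 4234 genes did. These 4 were Iigp1 and, named after their values were seen, Gbp2, Igtp and Psmb9. The median member was at a log2 ratio of -0.68 in GFP1 against the mean of the other 2, where the median of all 4234 genes was 0.04. B2m, the light chain of class I antigen presentation, was at 391, 599 and 579 CPM, H2-D1 at 169, 262 and 249 CPM, and Iigp1 at 8.60, 26.8 and 27.4 CPM. The macrophage and mast cell lists were lowest in GFP1 too, while the granulocyte list was not separate between GFP1 and GFP2, and the part of immune cells in this result was not tested.

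**Figure D4:**
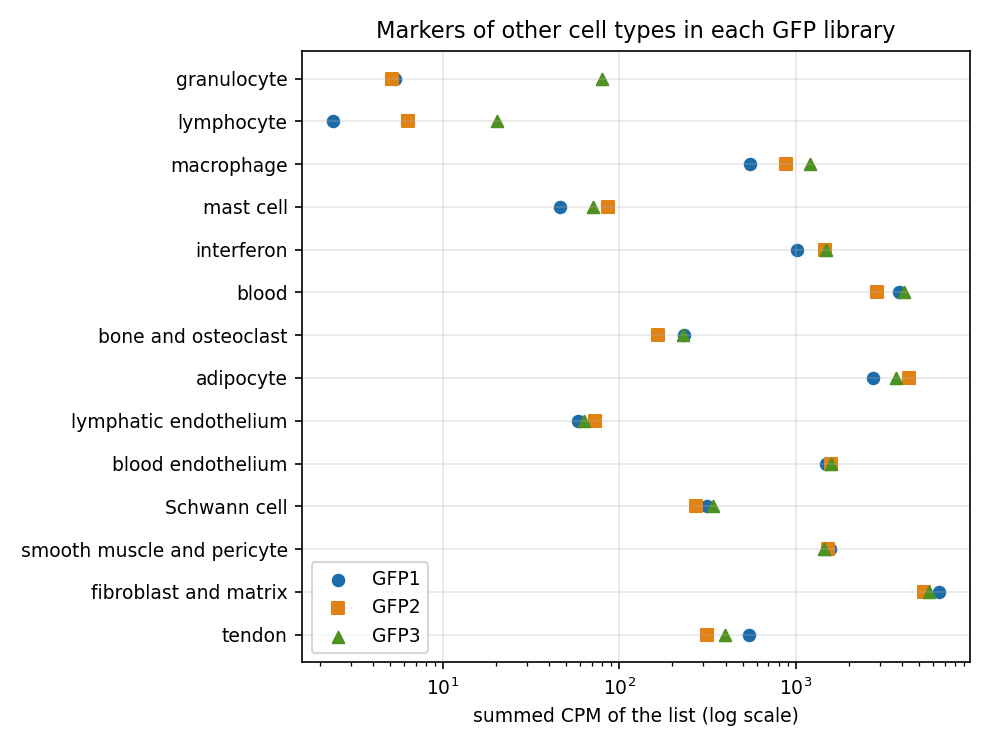
Summed level of each list of blood and other cell type markers and of the interferon genes, in CPM on a log axis, with 1 point for each GFP library. The granulocyte points of GFP1 and GFP2 lie near 5 CPM and that of GFP3 at 80.2 CPM, whereas the endothelial and fibroblast points lie close together.

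The remaining cell types were nearer to each other. Blood endothelium summed to 1488, 1582 and 1593 CPM, led by Fabp4 (412, 420.2 and 448 CPM) and with Pecam1 at 88.7, 97.9 and 92.3 CPM. Fibroblast and matrix genes summed to 6520.1, 5332 and 5698 CPM, led by Gsn (gelsolin), which fibres express too, and Dcn (decorin, 1125, 994 and 1121 CPM). Adipocyte genes summed to 2733, 4379.7 and 3724 CPM, mostly Car3 (2124, 3603 and 2973 CPM), a carbonic anhydrase that slow muscle also expresses. Adipoq averaged 28.8 ± 4.34 CPM (SD, n = 3), also highest in GFP2 and lowest in GFP1, and Plin1 had 0, 3 and 3 counts. Of the 8 adipocyte members with a mean of at least 50 counts, 7 were lowest in GFP1, also after TMM scaling. The same held for 1321 of all 4234 genes as counted and for 2004 after TMM scaling. Haemoglobin transcripts were lowest in GFP2, with Hba-a2 at 2082, 1569 and 2223 CPM. Hba-a1 and Hba-a2 are near copies, so the split between them is uncertain.

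Tendon and mast cell genes had other orders. The tendon list summed to 541, 315 and 398 CPM, and all 5 members with a mean of at least 50 counts were lowest in GFP2, as were 2005 of all 4234 genes. Among the 5 were Thbs4 (191, 121 and 132 CPM), Fmod (187, 109 and 132 CPM) and Chad (55.8, 24.2 and 48.2 CPM). The mast cell list summed to 46.3, 86.4 and 71.0 CPM (1.87-fold, or 2.08-fold after TMM scaling, highest in GFP2 on both), with Cma1 at 12.8, 28.5 and 25.1 CPM. Myelin transcripts of Schwann cells were present in each library, with Mbp at 78.6, 57.6 and 79.2 CPM and Pmp22 at 149, 149 and 175 CPM.

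Across all genes with a mean of at least 50 counts, the libraries were close but not equal. The median gene had a ratio of 1.24 between its highest and lowest library, 81.6% of genes stayed under 1.5-fold, and the biological coefficient of variation from edgeR was 15.9%. Set against counting noise alone, which leaves out PCR copies, the chi-square per degree of freedom was 7.45 for GFP1 and GFP2, 5.96 for GFP1 and GFP3 and 5.01 for GFP2 and GFP3. This chi-square was taken over a wider set of genes, with a lower limit on counts. Abundant genes such as Tpm1 weigh heavily on it, so it does not describe the typical gene. Of the 205 genes past 2-fold, 151 (3.57% of the 4234) were highest in GFP1, 14 (0.331%) in GFP2 and 40 (0.945%) in GFP3. Of the 151, 122 were lowest in GFP2. The share of GFP1 among the calls was 73.7% and fell to 63.7% after TMM scaling and to 61.8% with DESeq2 size factors. Without GFP1, the other 2 libraries left 46 genes past 2-fold, and without GFP2 they left 92.

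**Figure D5:**
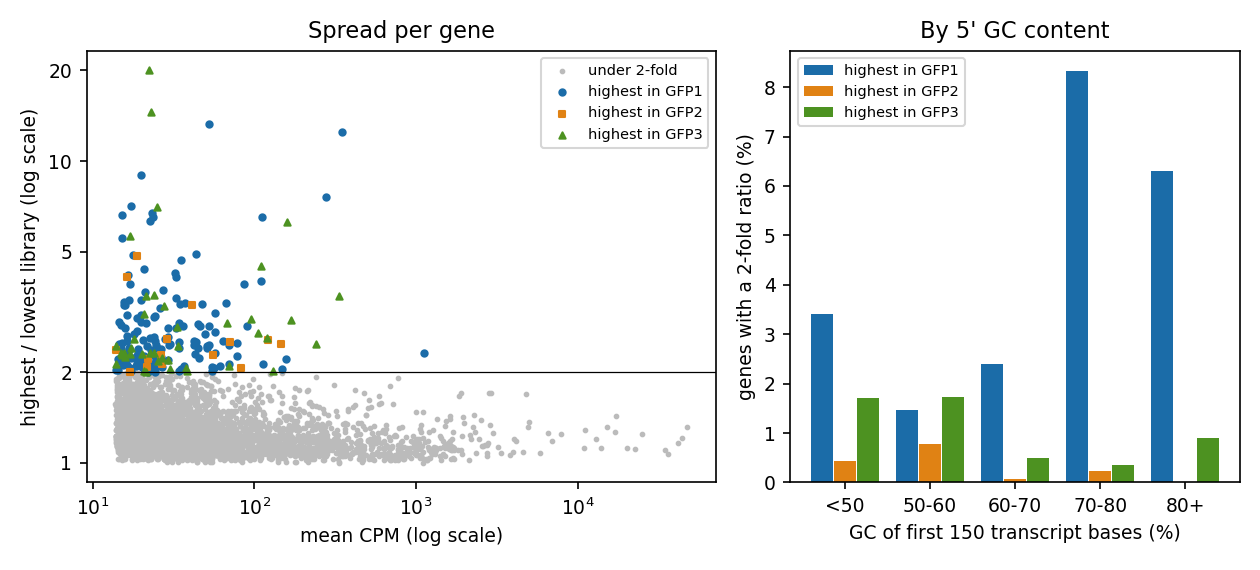
In the first panel, ratio of the highest to the lowest of the 3 GFP libraries (log axis) against the mean level in CPM (log axis), with 1 point for each of the 4234 genes with a mean of at least 50 counts, coloured by the highest library where the ratio is at least 2-fold. Most points lie under 2-fold, and the second panel's bars, the percent of genes past 2-fold by highest library in each range of GC content of the first 150 transcript bases, reach 8.32% for GFP1 at 70% to 80% GC.

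The genes at the top of this order fell into 2 kinds by library. Ccl8, a chemokine that attracts monocytes, received 9, 17 and 230 counts (20-fold), and Cish, which is induced by cytokines and growth hormone and damps their signalling, received 12, 35 and 217 (14.5-fold). Both were highest in GFP3, as were Prg4 (lubricin, 66, 23 and 189 counts), Csrp3 and Mup19. Mup19 has near-identical relatives, and its counts are uncertain.

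The others were highest in GFP1. Mrps24, a mitochondrial ribosomal protein, received 424, 32 and 88 counts (13.3-fold), and Chchd10, a protein of the mitochondrial intermembrane space, 2994, 245 and 325 (12.5-fold). In CPM, Chchd10 was at 888, 70.6 and 83.3, and GFP1 stood apart from both others. Ypel3 was at 46.3, 4.90 and 8.46 CPM and Bola3, an iron-sulfur cluster factor, at 214, 32.5 and 86.9 CPM. Uqcrfs1, described above with the respiratory genes, also belonged here (7.59-fold). H2afj, Rtf1, Ifngr2, Ube2s and Imp3 completed the group, with ratios between 5.56-fold and 7.08-fold.

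The genes highest in GFP1 differed from the rest in sequence. The first 150 bases of the longest transcript had a median GC content of 70.7% in the 151 genes, 57.0% in the 14 highest in GFP2, 56.0% in the 40 highest in GFP3 and 62.0% in genes under 2-fold. Of the 865 genes with 70% to 80% GC in those bases, 72 (8.32%) were past 2-fold and highest in GFP1, against 17 of 1154 (1.47%) at 50% to 60%. The relation was not a steady one, with 3.41% under 50% GC, 2.39% at 60% to 70% and 6.31% at 80% and over. Mrps24 had 76.7% GC there and Ypel3 80.7%, whereas Chchd10 had 54.7%. Transcript length moved with the libraries too. Genes whose longest transcript has at least 6000 bases had a median log2 ratio of 0.27 in GFP1 and -0.23 in GFP2 against the mean of the other 2 libraries. The medians of all 4234 genes on this scale were 0.04 in GFP1 and -0.09 in GFP2. With TMM scaling the all-gene medians were -0.06 and 0.03, so part of the offset depends on the scaling. The part of GC content or of length in the result was not tested.

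The 100 bases before the RefSeq start (GRCm38.p6) are shown for the genes of largest ratio with 1 promoter entry, 3 highest in GFP1 and then 3 highest in GFP3, written 5′ to 3′ on the strand of the gene with each CG dinucleotide in capitals.
Mrps24, chr11:5707702-5707801, minus strand: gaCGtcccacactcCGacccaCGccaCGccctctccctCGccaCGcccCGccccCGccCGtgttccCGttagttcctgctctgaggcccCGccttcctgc
Chchd10, chr10:75933030-75933129, plus strand: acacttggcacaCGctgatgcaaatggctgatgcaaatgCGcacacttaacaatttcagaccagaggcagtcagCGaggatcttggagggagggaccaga
Ypel3, chr7:126776863-126776962, plus strand: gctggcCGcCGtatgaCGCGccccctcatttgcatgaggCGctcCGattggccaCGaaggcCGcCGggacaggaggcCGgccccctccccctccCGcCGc
Ccl8, chr11:82115085-82115184, plus strand: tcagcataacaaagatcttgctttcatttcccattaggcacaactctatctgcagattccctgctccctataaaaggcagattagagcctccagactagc
Cish, chr9:107296559-107296658, plus strand: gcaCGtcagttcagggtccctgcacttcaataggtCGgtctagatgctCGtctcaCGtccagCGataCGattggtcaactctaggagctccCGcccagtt
Mup19, chr4:61782225-61782324, minus strand: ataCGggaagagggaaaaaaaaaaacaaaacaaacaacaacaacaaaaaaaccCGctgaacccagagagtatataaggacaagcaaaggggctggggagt
Mrps24 has 11 CG dinucleotides in the stretch shown and Ypel3 has 12, while Chchd10 has 3, Cish 7, Mup19 2 and Ccl8 0. In the 250 bases before the start, the median was 18.0 in the 97 genes with 1 promoter entry that were highest in GFP1, 3.50 in the 10 highest in GFP2, 5 in the 23 highest in GFP3 and 16 in all 2688 such genes.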

How the data were processed

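Full-length cDNA of 3 GFP libraries was read on an Oxford Nanopore instrument, from 1 µg of total RNA of frozen tissue and 14 PCR cycles, per the labels' protocols. The authors deposited whole-number read counts per gene along with CPM, per the file headers. Named in the submitters' processing notes are minimap2, GRCm38 and DESeq2 1.6.3, with no role for any. Which counting tool, annotation, strand setting or filters were applied was not given in the sources used here. The deposited CPM were used only to recover library totals, of which the listed genes held 95.8% to 96.4%. CPM, ranks, shares and ratios were computed from the counts in Python 3.11.15. Dispersion and TMM came from edgeR 4.0.16, size factors from DESeq2 1.42.0. Gene models were GENCODE vM21, matched by 22022 of 22036 identifiers. The table's 30 rows naming no gene held 0 counts.

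One group has no contrast, so no test was run and no p-value is given. Ratios used genes with a mean of at least 50 counts and 1 added count, with 2-fold as the line. The spread script was checked on simulated counts. Members and the 37 lists were chosen with earlier results of these data known. Genes were named by rule: the 25 of highest mean CPM, all members of the myosin, slow and fast lists, Mef2c and Prr14, up to 5 of highest mean plus the one of highest ratio in each other list, the 15 of highest ratio without predicted genes, and the 8 of lowest CV with a mean of at least 1000 counts. Alternatives covered scaling, count filters, length and leaving out each library. Some items that the rule names are not reported here.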

Additional observations from a re-analysis of the deposited data

How the results depend on the processing

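Of 92 alternative values, 78 moved by less than 1 SD between the libraries (for counts and the biological coefficient of variation, by at most 1.5 times) and 14 moved more. As that SD is wide for rare transcripts, the 78 include shifts of the mean slow share of over 1.5 times, as for Tnni1 per kilobase (0.0171%) and Myl2 without GFP3 (0.00873%). Per kilobase, the 10 most abundant genes held 33.8% of the total in place of 30.7%, 35.7 genes in place of 54.3 held 50% of it, and the slow shares of Atp2a2 and Casq2 were 0.0271% and 0.871%. The number of genes past 2-fold followed the filter: 581 with a mean of at least 20 counts, 34 with at least 200 and 4493 without a filter, of which 415, 19 and 2531 were highest in GFP1. Leaving out each library in turn gave 46 to 164 genes past 2-fold, and 68 to 144 highest in GFP1 (68 without GFP2). Lists past 2-fold numbered 4 under TMM and 1 (without GFP3) to 3 when a library was left out. No paired analysis was possible because only 1 group was described and its results come from no test. Low counts limit Myh7 and the granulocyte and lymphocyte genes, and the 3 libraries may not be separate animals.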

Other observations

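The Y-linked genes Ddx3y (35.0, 23.3 and 24.9 CPM in GFP1, GFP2 and GFP3) and Eif2s3y (26.7, 26.2 and 31.5 CPM) were detected in all 3 libraries, as were Uty and Kdm5d. The clock output genes Tef (103, 74.9 and 67.7 CPM) and Dbp (42.1, 32.8 and 43.8 CPM) and the clock repressor Nr1d1 (59.3, 56.5 and 73.3 CPM) were the leading circadian transcripts, and Arntl was low in each library, at 5.04, 2.59 and 1.54 CPM.

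Among stress and wasting genes, the small heat shock gene Hspb1 was at 169 CPM in GFP1 against 42.9 in GFP2 and 45.1 in GFP3, while the chaperone Hspa8 was lowest in GFP1, at 2067, 2869.9 and 2669 CPM. The muscle ubiquitin ligase Fbxo32 was at 89.3, 28.2 and 52.6 CPM (3.14-fold), whereas Trim63, the other well-known ligase of muscle wasting, was at 190.5, 154 and 134 CPM (1.42-fold). Jun was at 40.6, 16.7 and 15.9 CPM and Fos had 5, 14 and 37 counts, so these immediate early genes had opposite orders across the libraries.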
